A study of Mus musculus with 3 samples.

Results

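The miR-17 seed family of the mouse is a group of small regulatory RNAs encoded in 3 paralogous clusters. The 6 members listed were mmu-miR-17-5p and mmu-miR-20a-5p of the miR-17-92 cluster, mmu-miR-106a-5p and mmu-miR-20b-5p of the miR-106a-363 cluster, and mmu-miR-106b-5p and mmu-miR-93-5p of the miR-106b-25 cluster, where mmu stands for the mouse and is dropped from here on. They were chosen by name, and their spots were taken from the scanner files by the miRNA name that each spot carries. Of the 6, 5 were measured, among 1881 miRNAs in all, and miR-106a-5p was not analysed here. The mice were C57BL/6NJcl males aged 8 weeks, the material was serum, and no treatment or genetic change is labelled in any group. RNA was extracted from 200 µL of serum in 3 ways, with 1 microarray for each. The miRNeasy serum/plasma advanced kit purifies RNA from serum or plasma on a spin column, and the mirVana PARIS kit joins organic extraction to a glass-fibre filter. For the exoRNeasy arm, the serum was mixed with 700 µL of QIAzol, a lysis reagent based on phenol, and the aqueous layer was put through the exoRNeasy midi kit as the measure of total serum RNA. The labels do not say whether the extracts shared a pool of serum or how many mice gave it. Serum holds RNA that left cells of many kinds, and in such a fluid fewer source cells and less RNA per cell cannot be told apart.

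A miRNA finds its targets mainly through the seed, bases 2 to 8 from its 5′ end, so miRNAs that share a seed share most targets. Known targets of the miR-17 seed include the cell cycle inhibitor Cdkn1a, the transcription factor E2f1 and the death-promoting Bcl2l11. The miR-17-92 cluster is transcribed as 1 long precursor that acts in blood-forming and lymphoid cells, the miR-106b-25 cluster lies within the replication gene Mcm7, and the X-linked miR-106a-363 cluster is the least expressed of the 3 in most adult tissues. Family members are known in red cells and platelets, which is where much of the miRNA of serum comes from.

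The mature sequences, from RefSeq on GRCm38.p6, are shown because the members differ in so few bases that probes for one could bind another. All 6 listed members matched an entry. The seed is in capitals.
miR-17-5p: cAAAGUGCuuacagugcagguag
miR-20a-5p: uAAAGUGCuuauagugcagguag
miR-106a-5p: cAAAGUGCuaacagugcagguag
miR-20b-5p: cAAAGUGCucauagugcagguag
miR-93-5p: cAAAGUGCuguucgugcagguag
miR-106b-5p: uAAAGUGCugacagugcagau
miR-6383: uAAAGUGCugugucacggaca
The last, miR-6383, was the 1 further mature miRNA of the table with the same seed, out of 7 in all. Counted from the 5′ end, miR-17-5p and miR-20a-5p differed at 2 positions, C1U and C12U, and miR-17-5p and miR-106a-5p at 1, U10A. From miR-20a-5p to miR-20b-5p the changes were U1C and U10C. miR-93-5p stood farther off, with 4 changes from miR-17-5p, U10G, A11U, C12U and A13C. miR-106b-5p is 21 bases long against 23 for the other members, and over those 21 bases it differed from miR-93-5p at 5 positions. Most changes thus fell between positions 10 and 13 and none in the seed. The GC content of the members ran from 39.1% for miR-20a-5p to 52.2% for miR-93-5p. Probe sequences were not used here, so which bases each probe covers is not known, and binding of one member to the probe of another was not tested.

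The 3 clusters lie on different chromosomes of GRCm38.p6. The 6 hairpins of miR-17-92 span chr14:115043671-115044506 on the plus strand, with mature miR-17-5p at chr14:115043684-115043706 and miR-20a-5p at chr14:115044183-115044205. RefSeq's record of the host gene Mir17hg, chr14:115044390-115046728, begins after both. The 6 hairpins of miR-106a-363 span chrX:52741693-52742567 on the minus strand, with miR-20b-5p at chrX:52742159-52742181 and miR-106a-5p at chrX:52742541-52742563. The 3 hairpins of miR-106b-25 span chr5:138165321-138165818 on the minus strand, inside the gene Mcm7 at chr5:138164583-138172111, with miR-106b-5p at chr5:138165787-138165807 and miR-93-5p at chr5:138165574-138165596.

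Labelling with Cy3 took 1.8 ng of RNA per extract, and a 1-colour Agilent array was hybridised with it, on which each family member had 2 probes, with up to 15 usable spots each. For detection, more than 0.5 of a probe's usable spots had to be flagged well above background, and a miRNA needed at least 1 such probe. By that rule the exoRNeasy, miRNeasy advanced and mirVana PARIS arrays detected 83, 71 and 134 miRNAs in that order. Each kit has a single array, so differences have no replicate check and no p-value is given. An error given as ± is a standard error between spots unless called an SD, and covers the array step alone, not the extraction or the mice. No test of a difference between kits is possible in this design.

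The family was seen on all 3 arrays through the same 4 members, miR-20a-5p, miR-20b-5p, miR-93-5p and miR-106b-5p. That is 4 of 5 measured members on each array, where the share detected over all miRNAs was 4.41%, 3.77% and 7.12% on the arrays as ordered above. The fifth, miR-17-5p, the founding member of the family, was not well above background on any array. Its 2 probes gave mean signals of −6.46 and −6.48 with exoRNeasy, −2.32 and −4.21 with miRNeasy advanced and −1.66 and −0.96 with mirVana PARIS. None of its 88 usable spots was flagged well above background, and all 88 lay below the mean of the negative-control spots of their array. The highest of these spots read 1.64, while the negative controls averaged 5.26, 4.88 and 4.90 on the exoRNeasy, miRNeasy advanced and mirVana PARIS arrays. The median spot over all miRNAs, most of them undetected, read −2.85, −1.57 and −1.49 in the same order. The miR-17-5p probes read below that median, except for the one at −0.96. On these arrays every usable spot of both miR-20a-5p probes was flagged well above background. The miR-20a-5p hairpin lies in the same cluster, and its mature sequence is 2 bases from that of miR-17-5p. No level or kit ratio can be given for miR-17-5p.

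Before any scaling, each of the 4 detected members was brightest on the mirVana PARIS array, next with exoRNeasy and dimmest with miRNeasy advanced. Signals are background-subtracted scanner units, averaged over spots with their SD. They are set against each other for 1 probe across arrays and not between probes, since probes bind with different strength.

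miR-106b-5p, a repressor of Cdkn1a, read 375 ± 24.5 (SD, 15 spots) on the mirVana PARIS array with probe A_54_P1263. It read 105 ± 7.41 with exoRNeasy and 66.2 ± 7.08 with miRNeasy advanced (SD, 15 spots each). No spots of this probe overlapped between arrays: they lay between 334.6 and 429 on mirVana PARIS, 90.3 and 119 on exoRNeasy, and 53.6 and 77.5 on miRNeasy advanced.

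For miR-93-5p, encoded next to miR-106b in Mcm7, probe A_54_P1328 read 151 ± 12.0 on mirVana PARIS (SD, 15 spots), 56.9 ± 2.58 on exoRNeasy (SD, 13 spots) and 25.6 ± 3.53 on miRNeasy advanced (SD, 15 spots). Its spots did not overlap between any arrays either.

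miR-20a-5p, the detected member of the miR-17-92 cluster, read 147 ± 13.4 on mirVana PARIS with probe A_54_P1306, 67.04 ± 5.38 on exoRNeasy and 32.6 ± 5.01 on miRNeasy advanced (SD, 15 spots each). The lowest mirVana PARIS spot, 129, was above the highest exoRNeasy spot, 76.3. The lowest exoRNeasy spot, 56.7, was above the highest miRNeasy advanced spot, 42.1.

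miR-20b-5p, the measured member of the X-linked cluster, read 85.1 ± 8.51 on mirVana PARIS, 34.1 ± 4.66 on exoRNeasy and 17.2 ± 2.70 on miRNeasy advanced with probe A_54_P3922 (SD, 15 spots each). On the miRNeasy advanced array 14 of its 15 spots were flagged well above background, and the lowest detected probe of that array stood at 12.2, so this member was near the limit there.

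**Figure D1:**
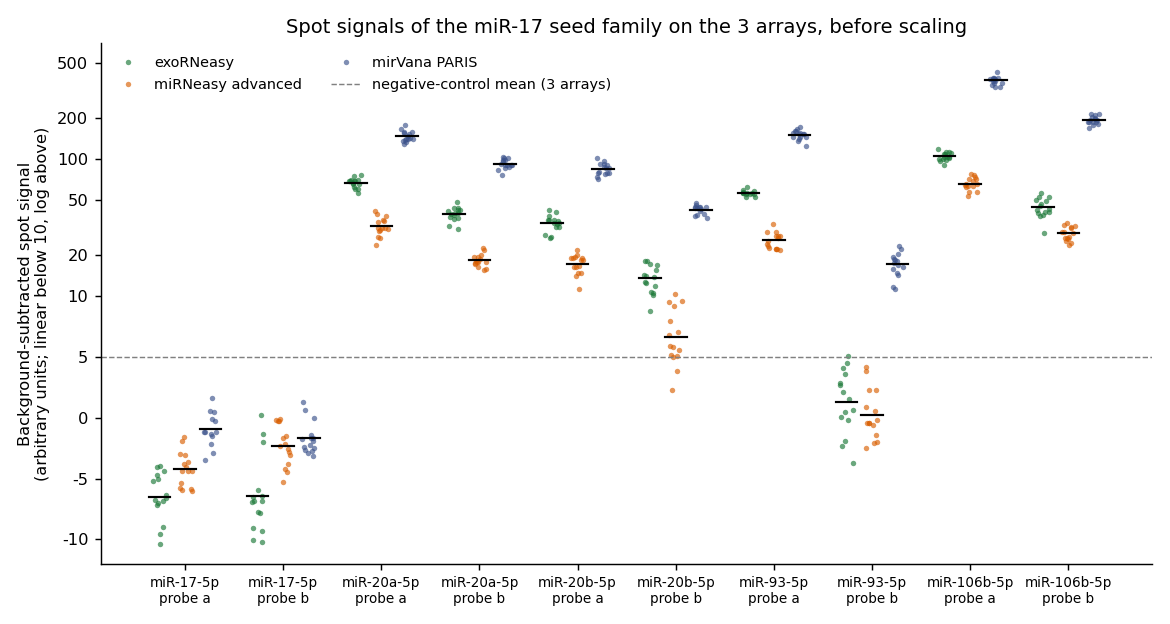
Background-subtracted signal (arbitrary units; linear below 10 and log above) of every usable spot of the 10 probes of 5 family members on the 3 arrays; black bars are means, probe a is the one used for ratios, and the dashed line is the mean negative control. Both miR-17-5p probes lie below that line on every array, and for the 4 other members each mirVana PARIS spot lies above all spots of the same probe on the other arrays.

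The second probe of each detected member kept the mirVana PARIS array on top. For miR-106b-5p, probe A_54_P1264 read 193 on mirVana PARIS, 44.7 on exoRNeasy and 28.6 on miRNeasy advanced, and here spots of the last 2 arrays overlapped. For miR-20a-5p, probe A_54_P1305 read 92.6, 39.8 and 18.3 in the same order. The other probes of the remaining members passed detection with mirVana PARIS and with neither other kit. For miR-20b-5p, probe A_54_P2834 read 42.8 on mirVana PARIS, with 13.7 and 6.60 on exoRNeasy and miRNeasy advanced, not well above background. Against the lowest detected signals of those arrays, 21.6 and 12.2, the mirVana PARIS level was at least 1.98-fold and at least 3.51-fold higher before scaling, and at least 1.01-fold and at least 1.004-fold higher after it. For miR-93-5p, probe A_54_P1327 read 17.2 on mirVana PARIS, 1.30 on exoRNeasy and 0.265 on miRNeasy advanced. Its level was at least 1.39-fold above the limit of the miRNeasy advanced array before scaling, and no bound above 1 could be given against exoRNeasy or after scaling.

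In fold terms before scaling, the members were 2.19-fold (miR-20a-5p) to 3.57-fold (miR-106b-5p) brighter on mirVana PARIS than on exoRNeasy. All 4 were at least 2-fold lower on exoRNeasy with a difference over 3 spot errors, against 27.5% of the 80 miRNAs detected on both arrays. Between mirVana PARIS and miRNeasy advanced they differed by 4.55-fold (miR-20a-5p) to 5.91-fold (miR-93-5p). All 4 passed the same mark, as did 80.3% of 71 miRNAs, so that count is near the background of the array pair. exoRNeasy was 1.59-fold (miR-106b-5p) to 2.24-fold (miR-93-5p) above miRNeasy advanced, and 2 of 4 members, miR-20a-5p and miR-93-5p, passed 2-fold against 43.3% of 67 miRNAs. The same mass of RNA was labelled each time, and the whole arrays shifted: the median over all miRNAs detected on both was 1.56-fold, 3.08-fold and 1.94-fold in the same 3 comparisons. The labelling spike-in, a control RNA added at labelling, differed by far less than the members, by −0.25 ± 0.18 for exoRNeasy minus mirVana PARIS and −0.13 ± 0.12 for miRNeasy advanced minus mirVana PARIS on the log2 scale (SD, 4 probes).

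Ratios given next are log2 differences after the 75th percentile of each array, taken over 106 probes that all 3 detected, was subtracted. After this scaling no member passed 2-fold with the probe chosen for it; the second probe of miR-106b-5p did in 1 comparison. The members kept a place below most other miRNAs in both comparisons with mirVana PARIS, which share that array and are not independent of each other.

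For exoRNeasy minus mirVana PARIS the 4 members had a median ratio of −0.39, against 0.33 over all 80 miRNAs. miR-106b-5p was lowest at −0.87 ± 0.04, a 1.82-fold lower level, followed by miR-93-5p at −0.43 ± 0.04, miR-20b-5p at −0.35 ± 0.06 and miR-20a-5p at −0.16 ± 0.04. All 4 were below 0, against 27.5% of the 80, and the miRNAs with a ratio below that of miR-106b-5p were miR-144-3p and miR-19a-3p. With the chosen probes none of the 4 was past 2-fold, where 27.5% of the 80 were in either direction. Most of those were higher on exoRNeasy, and the miRNAs past 2-fold lower were miR-144-3p at −1.60 and miR-19a-3p at −1.08. For miR-106b-5p the call of not past 2-fold rests on the probe and the scaling. Its second probe gave −1.16 ± 0.07, a 2.23-fold lower level, the mean over its detected probes −1.01, and scaling by the median of the shared probes −1.12. The second probe of miR-20a-5p gave −0.25 ± 0.05. With pixel medians in place of the background-subtracted signal, miR-20b-5p turned to 0.13 with normexp, a model-based background correction, and to 0.14 with none. miR-20a-5p was above 0 in 3 of 14 settings computed, at 0.055 with normexp, while miR-93-5p and miR-106b-5p were below 0 in all 14.

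For miRNeasy advanced minus mirVana PARIS the median of the members was −0.61, against 0.18 over all 71 miRNAs. Lowest was miR-93-5p at −0.76 ± 0.06, then miR-106b-5p at −0.70 ± 0.05, which lay within 1 spot error of it, then miR-20b-5p at −0.52 ± 0.07 and miR-20a-5p at −0.38 ± 0.07. All 4 were below 0, against 36.6% of the 71. None was past 2-fold, where 16.9% were in either direction. Most of those were higher on miRNeasy advanced, and the miRNAs past 2-fold lower were miR-133a-3p at −1.33 and miR-133b-3p at −1.34. The second probe gave −0.96 ± 0.05 for miR-106b-5p and −0.54 ± 0.05 for miR-20a-5p. The median of the members turned to 0.017 with normexp, where miR-20a-5p stood at 0.10 and miR-20b-5p at 0.33, while miR-106b-5p stayed at −0.53.

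For exoRNeasy minus miRNeasy advanced the members stood among the other miRNAs, with a median of 0.19 against 0.12 over all 67. miR-93-5p had 0.33 ± 0.05, miR-20a-5p 0.22 ± 0.07 and miR-20b-5p 0.16 ± 0.08, and miR-106b-5p alone was below 0, at −0.17 ± 0.05. That is 1 of 4 below 0 against 38.8% of the 67, and none was past 2-fold, where 4.48% were in either direction. The median of the members changed sign with the scaling, to −0.09 with the median of the shared probes and −0.11 with quantile normalization, so no direction is given for the family between these kits. With normexp 0.33 for miR-93-5p, 0.22 for miR-20a-5p and 0.16 for miR-20b-5p became −0.023, −0.040 and −0.204.

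**Figure D2:**
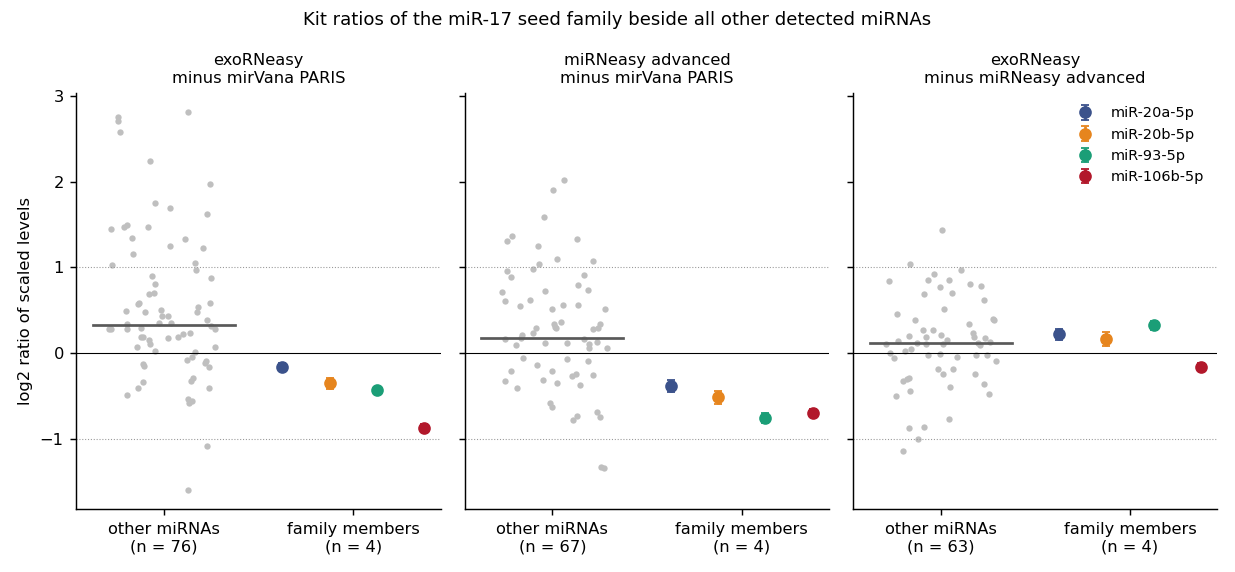
Log2 ratio of scaled levels for the 4 detected members (coloured, bars are standard errors between spots) beside all other miRNAs detected on both arrays (grey points, spread sideways at random), with the median over all miRNAs as a thick line and 2-fold as dotted lines. In both comparisons with mirVana PARIS the 4 members lie below 0 and below that median; in the third, 3 of the 4 lie above 0.

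Of the 6 pairs of detected members, 4 differed in their exoRNeasy minus mirVana PARIS ratio by over 3 spot errors, 2 in their miRNeasy advanced minus mirVana PARIS ratio and 3 in their exoRNeasy minus miRNeasy advanced ratio. These errors cover spots only, and the probes of miR-106b-5p differed from each other by 0.29 and 0.25 in the first and second comparison, near the smaller of the gaps counted. Passing 3 spot errors therefore does not by itself separate members. In the third comparison the probes of miR-106b-5p differed by 0.04 and those of miR-20a-5p by 0.07, less than the gaps counted there. miR-20b-5p and miR-93-5p had no second detected probe to compare there. The largest gap was in the first, where miR-20a-5p stood 0.70 ± 0.06 above miR-106b-5p, or 1.63-fold. miR-20a-5p and miR-20b-5p, from different chromosomes and 2 bases apart, differed by 0.19 ± 0.08, 0.13 ± 0.10 and 0.06 ± 0.10 in the 3 comparisons as ordered above, each under 3 spot errors. miR-93-5p and miR-106b-5p, from the same cluster, differed by 0.44 ± 0.05 in the first and by 0.49 ± 0.07 in the third, and by −0.06 ± 0.07 in the second.

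By cluster, the mean ratio of the 2 miR-106b-25 members lay 0.49 below that of miR-20a-5p, the detected miR-17-92 member, for exoRNeasy minus mirVana PARIS (a difference of −0.49). It was −0.35 for miRNeasy advanced minus mirVana PARIS and −0.14 for exoRNeasy minus miRNeasy advanced. Scaling by a single factor per array cannot move these differences. Over the settings computed, those included, they ran from −0.61 to −0.36, −0.41 to −0.33 and −0.21 to −0.03. The −0.14 averages members on opposite sides of miR-20a-5p. In that comparison miR-20a-5p minus miR-93-5p was −0.11 and miR-20a-5p minus miR-106b-5p was 0.38. Its negative sign therefore came from miR-106b-5p and not from the cluster as a whole. The one measured miR-106a-363 member, miR-20b-5p, differed from miR-20a-5p by −0.19, −0.13 and −0.06. Its difference changed sign under normexp or without background correction in the comparisons with mirVana PARIS, and widened to −0.74 and −0.66 there when the software's total over all probes of a miRNA was used. Spread between probes of a single miRNA gives a scale for these gaps. The probes of miR-106b-5p differed in ratio by 0.29, 0.25 and 0.04 in the 3 comparisons and those of miR-20a-5p by 0.09, 0.16 and 0.07. Over the 43, 42 and 39 miRNAs with several detected probes, the medians were 0.14, 0.12 and 0.07.

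**Figure D3:**
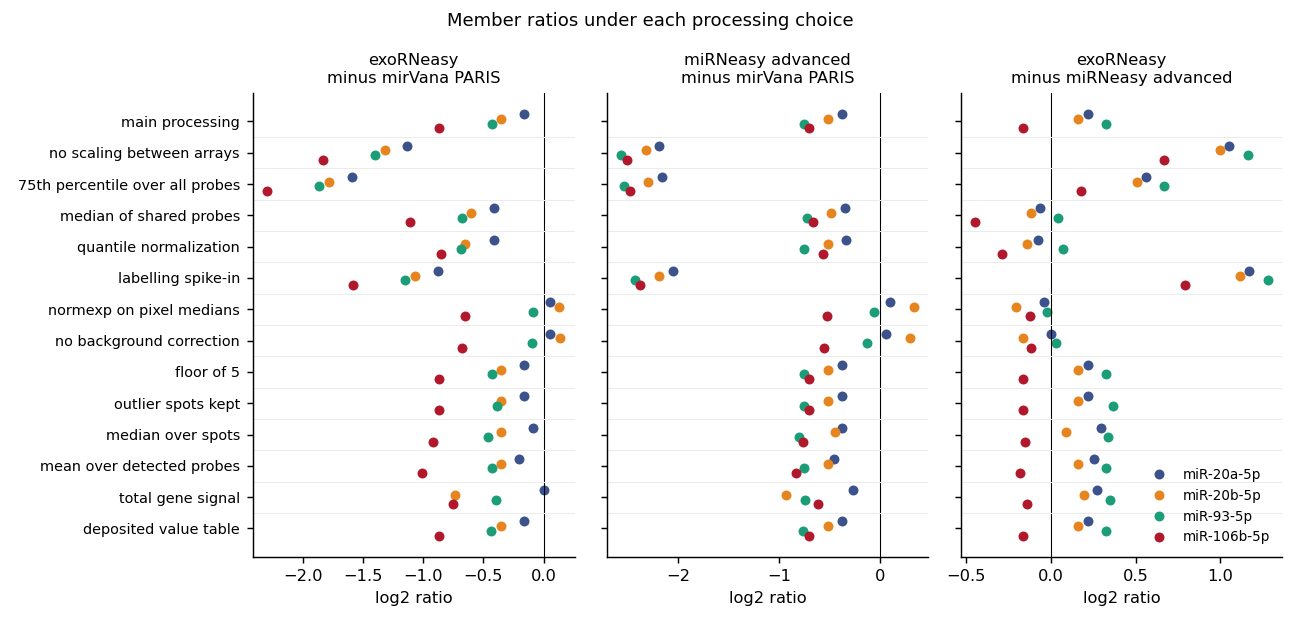
Log2 ratio of each detected member (coloured points) in the 3 comparisons under the main processing and 13 alternatives, 1 per line. In exoRNeasy minus mirVana PARIS miR-106b-5p is the lowest member in all 14 settings, of which those that scale an array by 1 factor cannot change the order, while the position of all members against 0 moves with the scaling and the background correction.

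The remaining products of the 3 clusters were taken from a list of 7 main arms and 15 other arms. The main arms belong to seed families other than that of miR-17: miR-18, miR-19, and the miR-25 and miR-92 family. Of the 7, 4 were detected on all 3 arrays, miR-19a-3p, miR-19b-3p, miR-92a-3p and miR-25-3p. miR-18a-5p was detected on the mirVana PARIS array alone, where its probe A_54_P2477 read 17.96, and miR-18b-5p and miR-363-3p, both encoded on the X chromosome, were detected on none. None of the 15 other arms, such as miR-17-3p and miR-93-3p, was detected on any array. Their 44 probes read at most 12.3 on exoRNeasy, 3.65 on miRNeasy advanced and 3.60 on mirVana PARIS. miR-6383, the other carrier of the seed, was not detected either, with probe means between −9.31 and −3.67 over the arrays. Of the measured products unique to the X-linked cluster, miR-20b-5p was the one that met the detection rule. Its sequence is 2 bases from that of miR-20a-5p, and binding of miR-20a-5p to its probes was not tested. The highest reading among the other arms, 12.3, was that of an X-linked product, miR-18b-3p, on exoRNeasy, where no usable spot of probe A_54_P00004885 was flagged well above background but all 15 lay above the negative-control mean. miR-19b-3p and miR-92a-3p are encoded in both the miR-17-92 and the miR-106a-363 cluster and cannot be assigned.

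Set beside the members, the cluster partners spread more widely with the chosen probes. In exoRNeasy minus mirVana PARIS they ran from −1.08 ± 0.06 for miR-19a-3p to 0.50 ± 0.04 for miR-92a-3p, with miR-19b-3p at −0.16 ± 0.03 and miR-25-3p at 0.01 ± 0.03. In miRNeasy advanced minus mirVana PARIS the same 4 had −0.69 ± 0.07, 0.11 ± 0.04, −0.37 ± 0.04 and −0.33 ± 0.05. The sign of 0.11 for miR-92a-3p rests on the probe chosen. Its other detected probe, A_54_P2494, had scaled log2 levels of −2.36 with miRNeasy advanced and −2.23 with mirVana PARIS. With the chosen probes, products of 1 cluster did not share a ratio: in the first comparison miR-25-3p stood at 0.01 beside −0.87 for miR-106b-5p. The other probe of miR-25-3p, A_54_P1432, was detected with mirVana PARIS alone. Its scaled log2 level was −2.62 there and −3.25 with exoRNeasy, where it was not detected. The size of that gap therefore depends on the probe chosen. With its chosen probe miR-19b-3p, at −0.16 and −0.37, stood close to miR-20a-5p, at −0.16 and −0.38. Its second detected probe, A_54_P1268, had scaled log2 levels of −2.30 with exoRNeasy, −2.08 with miRNeasy advanced and −1.40 with mirVana PARIS. That is a larger drop from mirVana PARIS, so the closeness rests on the probe chosen.

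Among the 63 other miRNAs detected on all 3 arrays, the 5 whose pair of ratios against mirVana PARIS lay nearest to the medians of the members were miR-486a-5p, miR-1a-3p, miR-16-5p, miR-30e-5p and miR-19b-3p. Likeness was the Euclidean distance in log2 units over those 2 ratios, from 3 arrays, and came to 0.064 for miR-486a-5p, a red cell miRNA, and 0.333 for miR-19b-3p. The members themselves lay at 0.101 for miR-20b-5p, 0.154 for miR-93-5p, 0.323 for miR-20a-5p and 0.484 for miR-106b-5p. Distances used the chosen probe of each miRNA, and the list and its order can depend on that choice. On exoRNeasy, miRNeasy advanced and mirVana PARIS, scaled log2 levels of the second probe were −1.97, −2.22 and −1.44 for miR-486a-5p. For miR-16-5p they were −0.75, −0.82 and 0.16. Both probes fell further from mirVana PARIS than the chosen ones. The 4 red cell miRNAs were also below 0 in both comparisons with mirVana PARIS, to differing degrees. Over all miRNAs, 27.5% of 80 and 36.6% of 71 were below 0 in the 2 comparisons, each taken alone. These comparisons share an array, so the share below 0 in both cannot be read from the separate shares. Being below 0 in both was not particular to red cell miRNAs. miR-1a-3p had −0.41 and −0.40, miR-133a-3p −0.49 and −1.33, and miR-133b-3p −0.54 and −1.34. For exoRNeasy minus mirVana PARIS the ratios were −0.34 ± 0.03 for miR-486a-5p, −0.58 ± 0.02 for miR-16-5p, −0.56 ± 0.02 for miR-451a and −1.60 ± 0.04 for miR-144-3p. For miRNeasy advanced minus mirVana PARIS they were −0.58 ± 0.04, −0.73 ± 0.02, −0.06 ± 0.03 and −0.74 ± 0.04. miR-223-3p, abundant in myeloid cells and platelets, went the other way with its chosen probe, at 0.57 ± 0.03 and 0.29 ± 0.03. Its other detected probe, A_54_P2629, had scaled log2 levels of 0.34 with exoRNeasy, 0.038 with miRNeasy advanced and 0.041 with mirVana PARIS. By that probe only exoRNeasy stood above mirVana PARIS. For exoRNeasy minus miRNeasy advanced, where the median of the members was 0.19, miR-486a-5p stood at 0.24 ± 0.04 and miR-16-5p at 0.15 ± 0.02, but miR-451a at −0.50 ± 0.02 and miR-144-3p at −0.86 ± 0.05. The part of red cell RNA in the members' ratios was not tested.

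**Figure D4:**
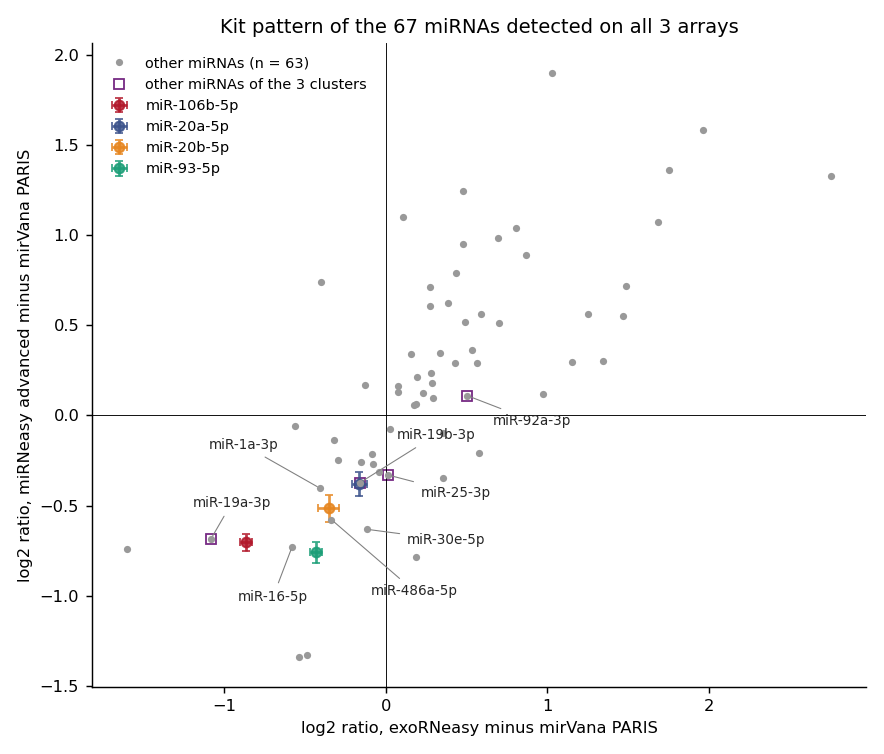
Each of the 67 miRNAs detected on all 3 arrays by its log2 ratio for exoRNeasy minus mirVana PARIS (x axis) and miRNeasy advanced minus mirVana PARIS (y axis), which share the mirVana PARIS array; members are coloured with standard errors between spots, squares mark other products of the 3 clusters, and labels name those and the 5 nearest miRNAs. With the chosen probes the 4 members lie at negative values on both axes, with miR-106b-5p beside miR-19a-3p and miR-20a-5p on top of miR-19b-3p.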

How the data were processed

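Serum miRNA was measured on 3 Agilent 1-colour arrays, 1 per kit. The scanner output deposited for each array gives linear spot intensity from Agilent Feature Extraction 11.5.1.1, background-subtracted and with no normalisation between arrays, per the file headers; the submitters' processing notes name version 11.5. Intensities of the deposited value table differed from these by at most 0.497%. Spots flagged as outliers were left out (1515, 1474 and 1427 miRNA spots on exoRNeasy, miRNeasy advanced and mirVana PARIS) and no spot was saturated. After a floor of 1, log2 signals were averaged per probe and scaled by the 75th percentile of the 106 probes found on all 3 arrays, at 7.05, 6.21 and 8.02 in the same order. Each miRNA was represented by the probe with most arrays detected, ties going to the brighter.

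Named were the family, the other products of its clusters, miRNAs with the same seed, 4 red cell miRNAs with miR-223-3p, and the 5 miRNAs of nearest pattern. The members and lists were chosen with earlier results of these data known. A difference counted as past 2-fold when also over 3 spot errors. The ratio step was tested on simulated spots that kept the real detection flags, with ratios recentred on the miRNAs left unchanged. The scaling between arrays, the detection rule and the mark of 3 spot errors were therefore not tested. Python 3.11.15, pandas 2.3.3, R 4.3.3 and limma 3.58.1 (normexp) were used. Alternatives covered scaling, background correction, floor, outliers, spot summary, probe choice, total gene signal, the deposited table and the detection rule. The arrays' number, 1 per kit, limits the precision.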

Additional observations from a re-analysis of the deposited data

How the results depend on the processing

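Of the alternatives, the floor of 5, outlier spots kept, the median over spots, the mean over detected probes and the deposited table moved no family or cluster value by more than the SD between spots. The median ratio of the members followed the scaling. For exoRNeasy minus mirVana PARIS it was −1.36 without scaling, −1.83 with the 75th percentile over all probes, −0.64 with the median of shared probes, −0.67 with quantile normalization, −1.11 with the labelling spike-in, −0.015 with normexp, −0.021 without background correction and −0.57 with the total gene signal. For miRNeasy advanced minus mirVana PARIS it was −2.41 without scaling, −2.39 with the 75th percentile over all probes, −2.28 with the spike-in, 0.017 with normexp and −0.034 without background correction. For exoRNeasy minus miRNeasy advanced it was 1.02, 0.53, −0.093, −0.109, 1.14, −0.081 and −0.061 without scaling, with all probes, shared median, quantile, spike-in, normexp and no correction. Relative to the median of all miRNAs, the scalings by 1 factor per array cannot change the members' median of −0.72 and −0.79 in the comparisons with mirVana PARIS. Settings that can moved it to −0.44 with normexp, −0.48 without correction and −1.08 with the total gene signal for exoRNeasy, and to −0.35, −0.40 and, with quantile normalization, −0.54 for miRNeasy advanced. The cluster difference of miR-20b-5p from miR-20a-5p moved to −0.74 and −0.66 with the total gene signal. Single members turned sign with normexp and without correction: miR-20a-5p to 0.096 and 0.058 and miR-20b-5p to 0.33 and 0.298 for miRNeasy advanced minus mirVana PARIS, miR-20b-5p to 0.13 and 0.14 for exoRNeasy minus mirVana PARIS, and, for exoRNeasy minus miRNeasy advanced, miR-20a-5p to −0.040 and −0.0022 and miR-20b-5p to −0.204 and −0.162, with miR-93-5p at −0.023 with normexp and 0.028 without correction. In that comparison miR-20a-5p and miR-20b-5p also turned to −0.065 and −0.120 with the median of shared probes and −0.076 and −0.141 with quantile normalization. For exoRNeasy minus mirVana PARIS miR-20a-5p too was above 0 in 3 of 14 settings, normexp among them, and reached at most 0.056. The offset of 50 added with normexp, and background left in the signal, shrink log2 differences of dim probes by construction. With every probe required, 2 members were detected on exoRNeasy, 2 on miRNeasy advanced and 4 on mirVana PARIS. With every spot required the numbers were 4, 3 and 4 in the same order, and with the software's gene flag 4 on each array. Signal over background limits miR-17-5p, which has no level, and miR-20b-5p on miRNeasy advanced. No paired analysis was possible because each kit had 1 array.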

Other observations

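The probes of miR-17-5p carry names of a form with 8 digits, unlike those of the 4 detected members. This was noticed after the values were seen. Of 2823 probes with names of that form, detection was 0.956% with exoRNeasy, 0.992% with miRNeasy advanced and 2.16% with mirVana PARIS. Of the 1592 other probes, 6.34%, 5.46% and 9.55% were detected, kits in the same order. The part of the probe in the missing miR-17-5p signal was not tested.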
